A study of Mus musculus with 2 samples.

Results

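The miR-103 and miR-107 family of the mouse consists of 3 microRNA (miRNA) genes, Mir103-1, Mir103-2 and Mir107, each lying inside a gene of a pantothenate kinase. They were taken from the count tables by name, through their Ensembl identifiers in the GENCODE annotation, by a rule that uses no measured value, and make up 3 of the 1973 miRNA genes of the tables. Small RNA libraries had been prepared from total RNA of the neural tube, the tissue that becomes brain and spinal cord, of B6NCrl mouse embryos at embryonic day 14.5. There was 1 group of 2 libraries: replicate 1 came from pup 1 of dam 1 and replicate 2 from pup 1 of dam 2. The labels name a single neural tube per library and at the same time give the sex as a pool of male and female. No treatment or mutation is named, so the data describe the level of the family in this tissue and its difference between 2 libraries. In that difference litter, embryo and library cannot be told apart.

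A miRNA is cut from a hairpin-shaped precursor, loaded onto an Argonaute protein and guided to messenger RNAs mainly by its seed, bases 2 to 8 from the 5′ end. The pantothenate kinases Pank1, Pank2 and Pank3 catalyse the first step of coenzyme A synthesis, and intronic miRNAs such as these are commonly transcribed with their host gene. miR-103 and miR-107 are found in most tissues, the brain among them, and are known for repressing Dicer1, the enzyme that cuts miRNA precursors, and Cav1, a membrane protein that bears on insulin signalling.

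The mature sequences show how alike the family members are, and this sets what a count per gene can measure. They are given from RefSeq on GRCm38.p6, which held all 3 genes, with the seed in capitals. The 3p arm, read from the 3′ side of the hairpin, was the same in both Mir103 genes.
miR-103-3p (Mir103-1 and Mir103-2): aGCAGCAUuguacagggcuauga
miR-107-3p (Mir107): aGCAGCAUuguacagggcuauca
miR-103-1-5p (Mir103-1): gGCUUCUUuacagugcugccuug
miR-103-2-5p (Mir103-2): aGCUUCUUuacagugcugccuug
miR-107-5p (Mir107): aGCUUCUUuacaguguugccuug

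All 3 genes carried the 3p seed GCAGCAU, and miR-103-3p and miR-107-3p were the 2 names with it among the 1679 mature miRNA names of the RefSeq table. The 5p arms likewise shared 1 seed, GCUUCUU, which 3 names of the table had. miR-103-3p and miR-107-3p differed at 1 of 23 bases, G22C, with positions counted from 1 at the 5′ end and the miR-103 base first. The 5p arms of Mir103-1 and Mir103-2 differed by G1A, and those of Mir103-2 and Mir107 by C16U. No member differed from another within a seed.

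The hairpins are printed with both mature arms in capitals, because the lower-case loop and flanks hold most of the differences between the genes.
Mir103-1: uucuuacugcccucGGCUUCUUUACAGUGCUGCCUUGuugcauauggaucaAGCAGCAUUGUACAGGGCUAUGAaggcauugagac
Mir103-2: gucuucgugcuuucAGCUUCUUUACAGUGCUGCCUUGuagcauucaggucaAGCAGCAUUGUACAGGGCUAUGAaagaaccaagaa
Mir107: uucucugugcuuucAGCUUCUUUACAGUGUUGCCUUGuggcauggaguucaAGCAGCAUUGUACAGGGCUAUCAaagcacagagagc

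Mir103-1 lies on the plus strand at chr11:35782396-35782481 (GRCm38, also called mm10), Mir103-2 on the plus strand at chr2:131288052-131288137 and Mir107 on the minus strand at chr19:34820687-34820773. Each is on the strand of its host and overlapped no annotated exon of it. Mir103-1 lay in intron 5 of the 7-exon coding transcript of Pank3, 688 bases after the exon before it. Mir103-2 lay in intron 5 of a 7-exon coding transcript of Pank2, 454 bases after the exon before it, and in intron 2 of a shorter coding transcript. Mir107 lay in intron 5 of both 7-exon coding transcripts of Pank1, 326 bases after the exon before it. In the 7-exon coding transcripts these introns spanned 1740 bases in Pank3, 5801 in Pank2 and 7282 in Pank1. In the shorter coding transcript of Pank2 the intron spanned 19135 bases. In a global alignment the hairpins of Mir103-1 and Mir103-2 were identical at 80.2% of positions, those of Mir103-1 and Mir107 at 80.5% and those of Mir103-2 and Mir107 at 83.9%. The Mir103 hairpins shared an unbroken run of 27 bases, against 24 for each of them with Mir107.

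In the deposited tables a read that fits several positions is counted for no gene. Such reads numbered 1922391 in replicate 1 and 2353481 in replicate 2, or 32.4% and 33.3% of each table. The stretch from the 3p arm's first base is shown over 28 bases, with the bases that vary between the genes in capitals.
Mir103-1: agcagcauuguacagggcuauGaaGgCa
Mir103-2: agcagcauuguacagggcuauGaaAgAa
Mir107: agcagcauuguacagggcuauCaaAgCa

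A read that starts at the first base of the 3p arm and ends by base 21 matched all 3 hairpins. From base 22 on, a Mir107 read matched its own hairpin alone among the 1005 RefSeq hairpins. A Mir103 read matched both Mir103 hairpins up to base 24 and 1 hairpin from base 25, which is beyond the end of the 23-base mature miRNA. On the other side of the loop, a read from the first base of the 5p arm matched 1 hairpin at 15 bases for Mir103-1 and at 16 bases for Mir103-2 and for Mir107. Of the 22-base windows of the hairpins, 57 of 65 were in 1 hairpin only for Mir103-1, 55 of 65 for Mir103-2 and 61 of 66 for Mir107. By sequence, then, the full-length mature miR-107-3p fits 1 of these hairpins and the full-length miR-103-3p fits 2; the rest of the genome was not searched. The tables do not separate the arms of a hairpin, and how many of the reads at several positions were miR-103-3p was not tested.

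**Figure D1:**
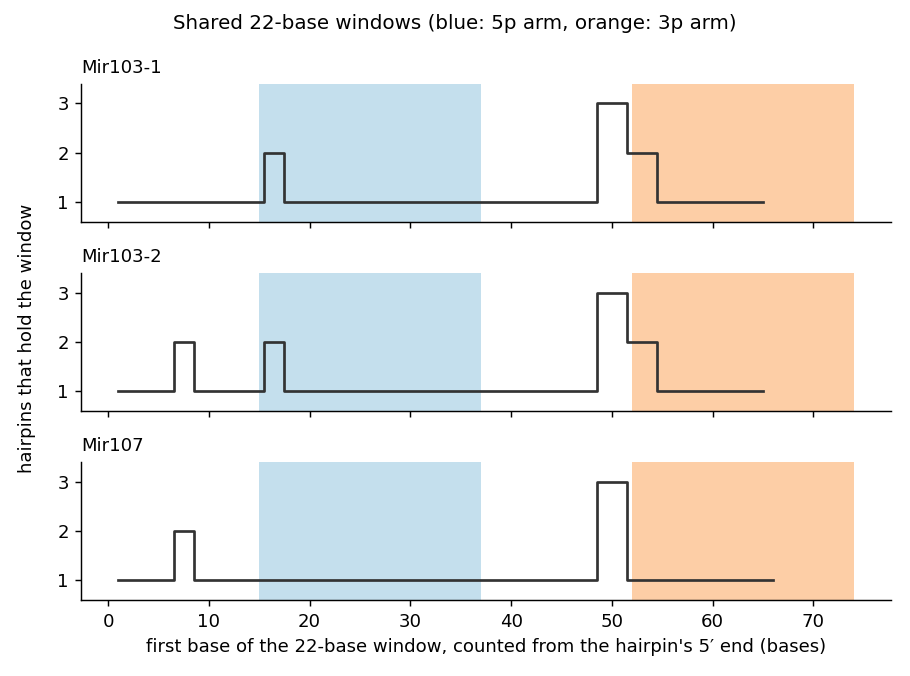
Number of RefSeq hairpins (vertical axis) that hold each 22-base window of Mir103-1, Mir103-2 and Mir107, by the window's first base from the 5′ end of the hairpin (horizontal axis, bases). Blue marks the 5p arm and orange the 3p arm. Windows that start at bases 49 to 51 were in 3 hairpins for every gene, and those that start at bases 52 to 54, where the 3p arm begins, were in 2 hairpins for the Mir103 genes and in 1 for Mir107.

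The libraries held 3172235 (replicate 1) and 3671915 (replicate 2) counts on the sense strand of miRNA genes, and levels are given as counts per 1000000 of these (CPM). A count of 0 allowed up to 0.946 and 0.817 CPM (3 counts). Intervals and these limits cover counting error only, since no molecular identifiers are stated. Of the 9 measured genes of a neural marker list, 6 had at least 10 counts in both libraries (called detected here), and the list held 1.50% and 1.32% of counts. Mir9-1 was named on it but not measured. Its Mir9, Mir128 and Mir219a genes share a mature miRNA with another gene, and reads that fit several positions are counted for none. The same may hold for Mir124a-1, Mir124a-2 and Mir124a-3, which are copies by their names. They had 21, 4 and 7 counts in replicate 1 and 23, 13 and 5 in replicate 2. The marker shares given here are thus of reads at single positions, not of the mature miRNAs. Genes of the posterior body axis (4 of 4 detected) held 41.8% and 36.9%. Markers of other cells were present as well. Endothelial Mir126a took 0.844% and 1.73%, mesenchymal markers (4 of 6 detected) 0.120% and 0.489%, and sensory markers (3 of 3) 0.211% and 1.50%. Red cell markers (3 of 3) took 0.00943% and 0.0113%, with Mir486 higher in replicate 1 (56 and 23 counts) and Mir451a and Mir144 higher in replicate 2. The myeloid marker Mir223 took 0.00199% and 0.0102%. Muscle markers (1 of 5, with Mir133a-1 and Mir133a-2 at 0) took 0.00454% and 0.00531%, and the liver marker Mir122 0.00435% and 0.00359%. By their names Mir133a-1 and Mir133a-2 are copies as well, and reads that fit both would be counted for neither. The part of these cells in the values of the family was not tested, and in bulk tissue fewer cells of a type cannot be told apart from less RNA per cell.

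Nearly all counts of the family lay on Mir107, the gene within Pank1. It had 4149 counts in replicate 1 and 4900 in replicate 2, or 1308 CPM (exact Poisson 95% interval 1268 to 1348) and 1334 CPM (1297 to 1372). The mean was 1321 ± 18.8 CPM (SD, n = 2). Both libraries gave nearly the same level, and their intervals overlapped. Mir107 ranked 72nd of 1973 genes in replicate 1 and 77th in replicate 2, and its mean was above that of 77.5% of the 329 detected genes, whose median was 170 CPM.

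Mir103-2, the gene within Pank2, had 85 counts in replicate 1 and 145 in replicate 2. These are 26.8 CPM (21.4 to 33.1) and 39.5 CPM (33.3 to 46.5), with a mean of 33.1 ± 8.98 CPM (SD, n = 2). The counting intervals just missed each other, with replicate 2 the higher. Its mean was above that of 22.2% of detected genes.

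Mir103-1, the gene within Pank3, was read least, with 7 counts in replicate 1 and 12 in replicate 2. These are 2.21 CPM (0.887 to 4.55) and 3.27 CPM (1.69 to 5.71), with a mean of 2.74 ± 0.751 CPM (SD, n = 2). The intervals overlapped, and that of replicate 1 reached below the limit that a count of 0 allows. It was the 1 member that fell short of 10 counts in a library, so 2 of the 3 genes were detected. On the opposite strand each of the 3 genes had 0 counts in both libraries.

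The order Mir107, Mir103-2, Mir103-1 was the same in both libraries, and no counting interval of a gene overlapped that of another. It was also the order per base of hairpin. Mir107 stood at 15.03 and 15.34 CPM per base, Mir103-2 at 0.312 and 0.459, and Mir103-1 at 0.0257 and 0.0380. This order is one of reads at single positions. Reads of miR-103-3p that fit both Mir103 hairpins are not among them, so it does not rank the mature miR-103 and miR-107.

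**Figure D2:**
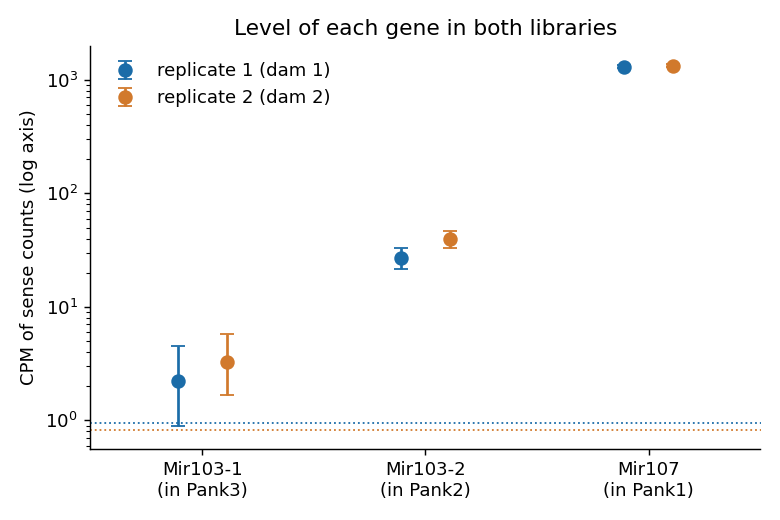
Level of Mir103-1, Mir103-2 and Mir107 in CPM (vertical log axis) in replicate 1 (blue) and replicate 2 (orange), with exact Poisson 95% intervals. Dotted lines mark the level of 3 counts in each library. Mir107 sits at 1308 and 1334 CPM, Mir103-2 at 26.8 and 39.5 and Mir103-1 at 2.21 and 3.27.

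Together the 3 genes had 4241 counts in replicate 1 and 5057 in replicate 2, or 1337 and 1377 CPM, a mean of 1357 ± 28.5 (SD, n = 2). This was 0.134% and 0.138% of the miRNA counts. The reads at several positions were 453 times as many in replicate 1 and 465 times in replicate 2. Mir107 made up 97.8% of the family's reads at single positions in replicate 1 (exact binomial 95% interval 97.3 to 98.2). In replicate 2 it made up 96.9% (96.4 to 97.4). Reads of miR-103-3p that fit both Mir103 hairpins are left out of such shares. Mir103-2 made up 2.00% (1.60 to 2.47) and 2.87% (2.42 to 3.37), and Mir103-1 0.165% (0.0664 to 0.340) and 0.237% (0.123 to 0.414).

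Between the Mir103 genes the ratio of counts was alike in both libraries, within wide intervals. Mir103-2 had 12.1 times the counts of Mir103-1 in replicate 1 (exact 95% interval 5.64 to 31.1) and 12.1 times in replicate 2 (6.71 to 23.9). Mir107 had 48.8 times the counts of Mir103-2 in replicate 1 (39.4 to 61.2) and 33.8 times in replicate 2 (28.6 to 40.1), and these intervals overlapped at their ends.

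To ask whether the libraries differed, replicate 1 was compared with replicate 2 by a two-sided exact binomial test per gene. The libraries were first scaled in edgeR (TMM, a trimmed mean of their log ratios). A gene was called where it reached 2-fold with an adjusted p (Benjamini-Hochberg) below 0.05. This test compares 2 libraries and covers counting error, not the spread between litters. Of the 3 family genes 0 were called, where 37 of 360 genes tested (10.3%) were called over the tables, 14 higher in replicate 1 (3.89%) and 23 higher in replicate 2 (6.39%). At an unadjusted p below 0.05 the count was 1 of the 3, where 213 of the 360 genes (59.2%) passed. At an adjusted p below 0.05 and 2-fold, edgeR's exact test with a coefficient of variation of 0.303 called 0 of the 3 and 7 of the 360. That spread was estimated from the same 2 libraries, so their difference is itself counted as spread, which leaves few genes that could be called.

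Mir107 stood at 0.18 as log2 of replicate 1 over replicate 2 (exact 95% interval 0.12 to 0.24), or 1.14-fold. Its adjusted p by the exact binomial test was 5.58e-09, and it missed the 2-fold minimum. Without that minimum 56.7% of the 360 genes passed, Mir107 among them. With scaling by total counts, which moves every log2 ratio by -0.21, the ratio of Mir107 was -0.029 with an adjusted p of 0.430 in the exact binomial test. A direction for Mir107 thus depends on the scaling.

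Mir103-2 had a log2 ratio of -0.34 (-0.75 to 0.05; exact binomial test, adjusted p = 0.131). With scaling by total counts the ratio was -0.56, with an adjusted p of 0.00830 in the exact binomial test, again under the 2-fold minimum. Mir103-1 had a log2 ratio of -0.31 (-1.94 to 1.11; exact binomial test, adjusted p = 0.737), an interval wide enough to hold a 2-fold difference in either direction. The median of the 3 ratios was -0.31, which is the ratio of Mir103-1, and 2 of 3 lay below 0. Over all 360 genes the median was -0.02, and 185 lay below 0. With scaling by total counts, which shifts all genes alike, 3 of 3 were below 0 and 0 were called, against 257 of 360 below 0 (71.4%) and 43 called (11.9%) over all genes tested.

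A difference between members does not depend on the scaling, since both genes of a pair are read in the same libraries. The log2 ratio of Mir107 was above that of Mir103-2 by 0.53 (exact 95% interval of the odds ratio, 0.13 to 0.94), an interval for counting error. Against Mir103-1 the difference was 0.54 (-0.93 to 2.12), and between Mir103-2 and Mir103-1 it was 0.01 (-1.52 to 1.65). At 7 and 12 counts, differences of either sign remained possible for Mir103-1.

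**Figure D3:**
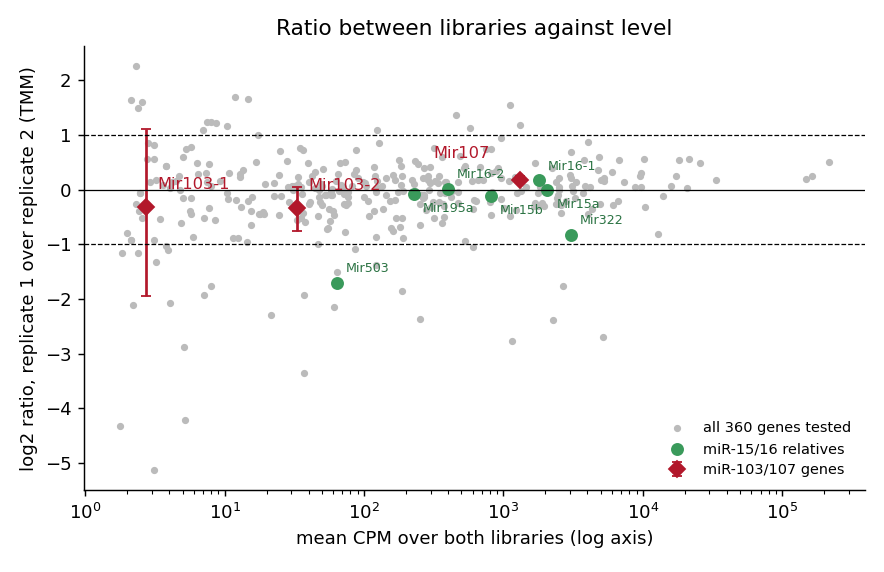
Log2 ratio of replicate 1 over replicate 2 after TMM scaling (vertical axis) against mean CPM (horizontal log axis) for the 360 genes tested (grey), the miR-15/16 relatives (green) and the miR-103 and miR-107 genes (red, exact 95% intervals). Dashed lines mark 2-fold. All 3 red points lie inside the dashed lines, at 0.18 for Mir107, -0.34 for Mir103-2 and -0.31 for Mir103-1.

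Genes closest in level were found as those with the smallest Euclidean distance in log2(CPM + 1) over the 2 libraries. For Mir107 the closest was Mir433, of the imprinted Dlk1-Dio3 region, with 4218 and 4767 counts (distance 0.05). Mir708 followed with 3914 and 5329 counts (0.15), then Mir125b-1 with 3862 and 4414 counts (0.18). For Mir103-2 the closest were Mir302b with 84 and 147 counts (0.03), Mir24-2 with 78 and 154 (0.15) and Mir30c-1 with 84 and 161 (0.15). With 2 libraries this likeness is hardly more than one of mean level.

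The miR-15/16 genes are the nearest relatives by seed and are known for restraining the cell cycle. The relatives measured here carry the hexamer AGCAGC from base 2 of a mature sequence, apart from Mir497b, which was on the list by its name and lacks it in the first 10 bases, whereas miR-103-3p and miR-107-3p carry it from base 1. The hexamer is in capitals in the lines that follow, which show this shift by 1 base.
miR-107-3p: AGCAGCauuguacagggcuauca
miR-15a-5p: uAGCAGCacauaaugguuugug
miR-16-5p: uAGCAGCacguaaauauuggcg
miR-322-5p: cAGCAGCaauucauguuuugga
miR-503-5p: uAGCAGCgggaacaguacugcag

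The hexamer, searched on the mature strand within the first 10 bases, was in 16 of 1679 mature names (0.953%), at base 1 in 2 names and at base 2 in 11. A match is a description of the letters and not of a target.

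Of 10 relatives named for the comparison, 9 had a row in the tables by symbol, all but Mir497, and 7 were detected. They held 0.697% of counts in replicate 1 and 0.983% in replicate 2, more than the 0.134% and 0.138% of the miR-103 and miR-107 genes. Per base of hairpin, Mir107 lay between Mir16-1 (18.9 and 19.5 CPM per base) and Mir15b (11.2 and 14.1), and its range of 15.03 to 15.34 overlapped neither. Mir322 at 20.9 and 43.2 and Mir15a at 22.7 and 26.5 were higher, and their ranges overlapped. Mir16-2 stood at 3.91 and 4.51 and Mir195a at 2.19 and 2.69. Mir503 at 0.377 and 1.43 overlapped Mir103-2. Mir497b had 1 and 0 counts and Mir195b 0 and 0. Mir16-1 and Mir16-2 share the mature miR-16-5p, as the Mir103 genes share miR-103-3p, so their levels too are those of reads at single positions.

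**Figure D4:**
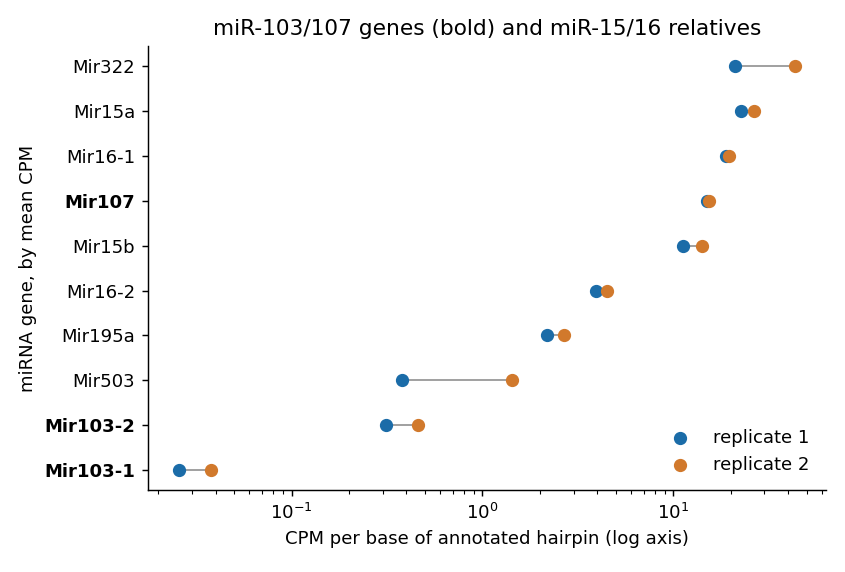
CPM per base of annotated hairpin (horizontal log axis) of the miR-103 and miR-107 genes (bold) and the detected miR-15/16 relatives, ordered by mean CPM, in replicate 1 (blue) and replicate 2 (orange). Mir107 lies at 15.03 and 15.34, between Mir15b and Mir16-1, and both Mir103 genes lie at the foot of the plot.

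Of the 7 relatives tested, 1 was called, against 10.3% of all genes tested. This was Mir503, which had 85 counts in replicate 1 and 372 in replicate 2 and was 3.25-fold higher in replicate 2 (log2 ratio -1.70, 95% interval -2.06 to -1.36; exact binomial test, adjusted p = 4.93e-27). Its neighbour on the X chromosome, Mir322, had 6300 and 15071 counts, a log2 ratio of -0.83 (-0.88 to -0.79). The other 5 ranged from -0.12 for Mir15b to 0.17 for Mir16-1. The median of the 7 was -0.09, and 5 lay below 0, as did 185 of all 360 genes. With scaling by total counts the median was -0.30 and 7 of 7 lay below 0, where the median of all 360 genes was -0.23 and 71.4% lay below 0. Under that scaling 2 relatives were called, since Mir322 then passed the 2-fold minimum at -1.05, against 11.9% of all genes.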

How the data were processed

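The authors deposited, per library, raw read counts per miRNA gene (sense strand, opposite strand and their sum), made on mm10 with annotation M4 per the deposited text notes. The aligner is not given in the sources used here, nor are trimming and filters. The sense counts were used, and 4 rows that name no gene stayed out: unmapped (11.5% and 11.8% of reads), several positions (32.4% and 33.3%), no feature (2.75% and 3.01%) and ambiguous. Symbols and introns came from GENCODE M21 (GRCm38) by Ensembl identifier (1894 of 1973 matched), sequences from RefSeq (869 matched by symbol or position).

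A gene was tested where either library had 10 counts. Counts were scaled by TMM in edgeR 4.0.16 (R 4.3.3), with a prior count of 0.5 in log2 ratios, and compared by exact binomial tests in scipy 1.17.1, with Benjamini-Hochberg adjustment over all 360 genes. The test was tested on simulated data. A quasi-likelihood fit was not possible, as each dam gave a single library. Alternatives were total-count scaling, DESeq2 1.42.0 size factors, other filters, either-strand counts, edgeR's exact test, no minimum fold and summed copies.

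Named were the 3 members, the miR-15/16 relatives, the 3 genes closest to each detected member, and marker lists. The family was proposed, and the lists were chosen, with earlier results of these data known, while the rule for its members goes by name.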

Additional observations from a re-analysis of the deposited data

Results flagged for a closer look

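Among the genes listed as miR-15/16 relatives, 1 gene had a signal in the other-strand counts, which the comparisons did not use and for which there were no control samples. Mir497b had 1 sense count in replicate 1 and 0 in replicate 2, but 529 and 823 counts on the other strand, above the 3 counts that a count of 0 allows. It lies on the minus strand of chromosome 11, 70234692 to 70234816, and RefSeq places the mature miR-497a-5p of Mir497 on the plus strand within it, at 70234730 to 70234751. Mir497 itself was named as a relative, but no row was found for it by symbol, so it was not analysed here.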

How the results depend on the processing

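The direction for Mir107 turned with scaling by total counts, to a log2 ratio of -0.029, as did that of the sum of the 3 genes, to -0.043. Without the 2-fold minimum Mir107 passed at 0.18. Over the alternatives run, the ratio ranged from -0.029 to 0.20 for Mir107 (adjusted p 1.79e-10 to 1), from -0.56 to -0.33 for Mir103-2 (adjusted p 0.00830 to 1) and from -0.53 to -0.30 for Mir103-1 (adjusted p 0.114, for the summed Mir103 pair, to 1), by exact binomial or edgeR exact tests. Mir103-1 was not tested at a filter of 100 counts. The number of genes called was 21 at that filter, 204 without a minimum fold and 7 by edgeR's exact test. With total counts 81.4% of calls were higher in replicate 2, against 62.2%. Per 1000000 of all reads in the table the means were 1.44 (Mir103-1), 17.4 (Mir103-2), 695 (Mir107) and 714 (summed). Windows in 1 hairpin only were 55, 51 and 59 (Mir103-1, Mir103-2, Mir107) at 20 bases and 53, 47 and 57 at 18 bases. Searching GENCODE miRNA transcripts, an alternative chosen after seeing the data, gave the same counts as RefSeq at 22 bases. At 7 and 12 counts depth limits what can be said of Mir103-1. No paired analysis was possible because there is 1 group.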

Other observations

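The Mir103 genes were set beside other miRNA genes that share a mature name with a copy elsewhere. Only genes matched to RefSeq (869 of 1973) and listed there under a shared name could form a group. Mir125b-1 and Mir125b-2, copies by their names, formed none. They had 3862 and 4308 counts in replicate 1 and 4414 and 5607 in replicate 2. Of 35 groups with at least 2 measured genes, those from rank 26 on by summed level had 0 counts in both libraries. The Mir103 pair ranked 17th among these 35 groups, at 92 and 157 counts. Its larger copy, Mir103-2, held 92.4% of the pair's counts in replicate 1 and 92.4% in replicate 2. The split was as uneven or more so for Mir219a-1 and Mir219a-2 (95.2% and 94.3% on the larger copy) and for Mir196a-1 and Mir196a-2 (98.6% and 98.0%), and closer to even for Mir128-1 and Mir128-2 (70.1% and 69.4%), for Mir7-1 and Mir7-2 (52.1% and 50.6%) and for Mir30c-1 and Mir30c-2 (52.0% and 57.9%). From the first base of the shared mature miRNA, a read matched 1 hairpin only from 25 bases on for the Mir103 and Mir7 pairs. This length was 22 for the Mir128 and Mir219a pairs, 23 for the Mir196a pair and 29 for the Mir30c pair. These groups were named after their values were seen. Detection was also described, with no test, for genes that have a mature name in RefSeq. Of the 79 with a shared name 48.1% were detected, against 31.6% of the 779 without one. Copies that RefSeq does not list under a shared name could not be counted as such.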
